A study of Mus musculus with 20 samples.

Results

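Pparg and Cebpa encode the transcription factors PPARγ and C/EBPα, which were followed here through the differentiation of the 3T3-L1 line, mouse fibroblasts able to become fat-storing adipocytes. The rule for membership was that a probe set of either array type carried Pparg or Cebpa as its only gene symbol in the platform annotation. It found 2 probe sets, 1 for each gene, among 13179 in all. Of those, 7542 had exactly 1 symbol, standing for 6137 genes. The Pparg probe set (u09138_s_at) lay on the array type called array A here and the Cebpa probe set (Msa.506.0_at) on array B. Because probe sets differ in how strongly they bind, the level of 1 gene cannot be set against that of the other, and with 1 value per gene the isoforms of Pparg cannot be told apart.

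RNA had been taken at 10 time points and measured on both array types, which makes 20 samples with no replicate of any time point. In order of time, the stage before induction held preconfluent and confluent fibroblasts (n = 2), the early stage 6, 12 and 24 hours after induction (n = 3), the middle stage days 2 and 3 (n = 2), and the late stage days 4, 7 and 28 (n = 3). The labels name no genotype, allele or treatment other than the MDI mixture, which every sample after confluence had received and which is in standard use isobutylmethylxanthine, dexamethasone and insulin. No uninduced culture was kept beside the induced ones, so time in culture and induction cannot be told apart. In bulk RNA a larger share of adipocytes and more RNA per adipocyte cannot be told apart either.

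PPARγ is a nuclear receptor that binds DNA as a heterodimer with a retinoid X receptor (RXR) and is switched on by lipid ligands. C/EBPα is a basic leucine zipper factor of the CCAAT/enhancer-binding protein family. In the textbook scheme of adipogenesis, C/EBPβ and C/EBPδ come on first after hormonal induction and switch on Pparg and Cebpa, which then maintain each other's transcription and drive the genes for lipid uptake, storage and hormone secretion. Pparg has several transcription start sites, and the one used by its fat-cell form lies downstream of the others.

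The 250 bases before each start that RefSeq lists for the 2 genes (mouse build GRCm38.p6, forward strand) are shown because the C/EBP family is known to act on both genes, and capitals mark each match to the C/EBP recognition letters TTNNGNAA or TGNNGNAA on either strand. The 3 Pparg stretches lie at chr6:115360894-115361143, chr6:115362099-115362348 and chr6:115421816-115422065, and the Cebpa stretch at chr7:35119043-35119292.
Pparg start 1: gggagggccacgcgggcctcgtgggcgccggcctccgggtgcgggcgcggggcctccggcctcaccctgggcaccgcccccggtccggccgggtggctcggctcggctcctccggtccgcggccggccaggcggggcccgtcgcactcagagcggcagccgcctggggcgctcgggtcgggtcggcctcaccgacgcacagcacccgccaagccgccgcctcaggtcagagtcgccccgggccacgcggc
Pparg start 2: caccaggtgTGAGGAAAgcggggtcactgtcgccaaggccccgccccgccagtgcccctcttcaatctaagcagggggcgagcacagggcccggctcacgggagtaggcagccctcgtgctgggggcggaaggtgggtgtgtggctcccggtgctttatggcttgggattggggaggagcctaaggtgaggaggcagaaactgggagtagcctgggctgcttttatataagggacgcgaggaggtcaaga
Pparg start 3: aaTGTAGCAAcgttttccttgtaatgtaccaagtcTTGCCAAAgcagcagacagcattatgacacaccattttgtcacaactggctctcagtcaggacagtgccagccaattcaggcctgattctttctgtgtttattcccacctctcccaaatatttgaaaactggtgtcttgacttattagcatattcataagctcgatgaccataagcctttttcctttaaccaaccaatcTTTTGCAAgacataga
Cebpa: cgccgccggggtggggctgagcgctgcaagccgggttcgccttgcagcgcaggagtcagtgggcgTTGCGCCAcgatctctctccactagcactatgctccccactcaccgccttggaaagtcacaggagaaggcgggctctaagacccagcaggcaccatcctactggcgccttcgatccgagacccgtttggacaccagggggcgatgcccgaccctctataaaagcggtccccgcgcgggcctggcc

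The most downstream Pparg stretch held 3 C/EBP matches and was the poorest in G and C (40.8%). The most upstream one held 0 matches and was 82.4% G and C, the middle one held 1 match at 63.6%, and the Cebpa stretch held 1 match at 66.4%, against a median of 52.4% over 32851 mouse promoters. The 3 matches were TGTAGCAA, TTGCCAAA and TTTTGCAA, the last beginning 16 bases before the start. Of all these promoters, 60.9% held at least 1 such match and 11.5% at least 3, so a single match is common. The letters AGGTCA, bound by nuclear receptors, stood on the forward strand in the upstream and middle Pparg stretches. They were found on either strand in 14% of all promoters. TATAAA began 30 bases before the Cebpa start, and its reverse-strand form TTTATA began 29 bases before the middle Pparg start. On either strand, TATAAA was found in 12.4% of promoters. None of the 18 matches listed for these stretches overlapped another. A match is a description of letters and not evidence of binding, and the sequence table does not pair a start with the transcript the Pparg probe set reads.

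Pparg was near background in fibroblasts, became measurable at 24 hours and stayed on through day 28. Its deposited intensity, in arbitrary linear units that can fall below 0, was 102 in preconfluent cells, 68 in confluent cells, -38 at 6 hours and 17 at 12 hours. It was then 267 at 24 hours, 894 on day 2, 1410 on day 3, 1640 on day 4, 1210 on day 7 and 1180 on day 28. The 4 values up to 12 hours lay at or below 137, the floor to which dim values of array A were set before taking log2, and so have no order among themselves. From 24 hours on every sample was above that floor.

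Cebpa was at background in all 5 samples up to 24 hours. Its intensity was -195 in preconfluent cells, -84 in confluent cells, -26 at 6 hours, -35 at 12 hours and -229 at 24 hours. It was 1050 on day 2, 1490 on day 3, 1700 on day 4, 1990 on day 7 and 1470 on day 28. The first 5 values were all at or below 156, the floor of array B, and all 5 values from day 2 on were above it. How many other tested probe sets part the samples in the same way was not counted, for Cebpa or for Pparg. Both genes passed the filter on low values only through samples from 24 hours on, so their place among the tested probe sets is itself tied to being high late.

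**Figure D1:**
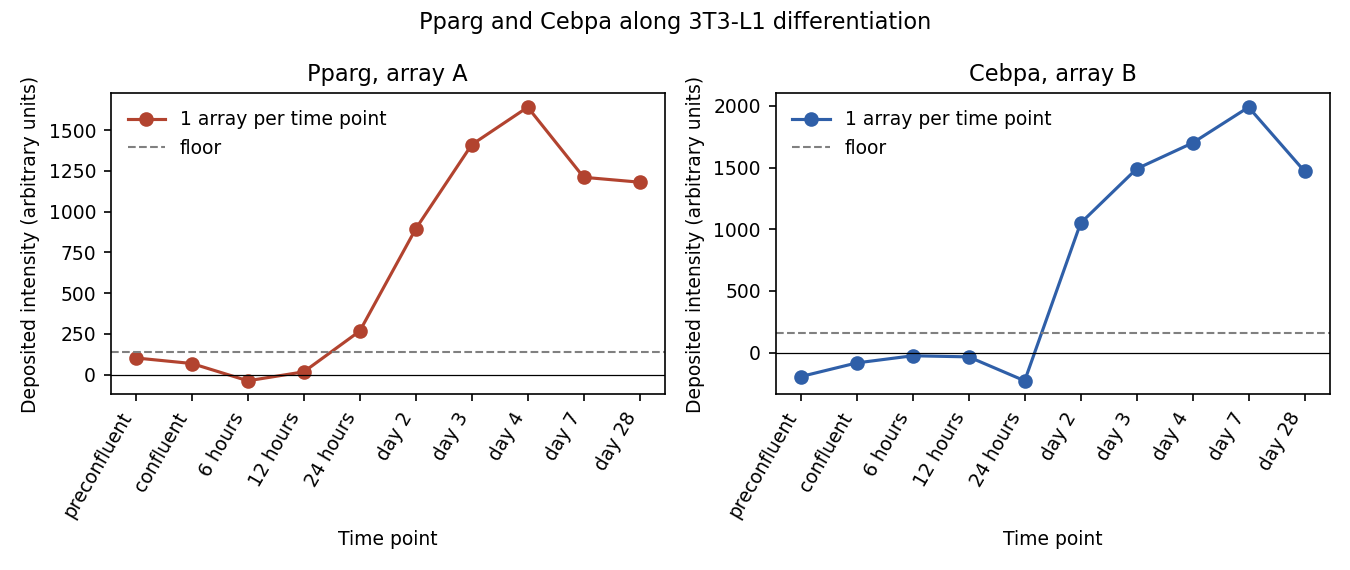
Deposited intensity (arbitrary units, linear axis) of Pparg on array A and Cebpa on array B at each of the 10 time points, 1 array per point, with the floor as a dashed line. Pparg is above its floor at 24 hours (267) while Cebpa is still below its own (-229), and both are far above it from day 2 on.

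Pparg peaked on day 4 and Cebpa on day 7. Pparg at 24 hours stood at 16.3% of its peak intensity, on day 2 at 54.5%, on day 3 at 86%, and at 73.8% and 72% on days 7 and 28. Cebpa reached 52.8% of its peak on day 2, 74.9% on day 3 and 85.4% on day 4, with 73.9% left at day 28. With no replicates, the spread within the middle and late stages served as the yardstick for these differences: the SD of a difference between 2 samples was 0.49 on the log2 scale for Pparg and 0.39 for Cebpa, and it holds real change with time as well as error.

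By that yardstick the order of Pparg from day 4 through day 3, day 7 and day 28 down to day 2 had no neighbouring pair further apart than the spread, with gaps of 0.22, 0.22, 0.04 and 0.40 on the log2 scale. Day 4 was above day 2 by 0.88, beyond the spread, and above day 28 by 0.47, within it. Day 2 was above 24 hours by 1.74 and 24 hours above the floor by 0.96, both beyond the spread. For Cebpa, days 7, 4, 3 and 28 followed each other with gaps of 0.23, 0.19 and 0.02, all within the spread, while day 28 was above day 2 by 0.49 and day 7 above day 28 by 0.44, both slightly beyond it. The later peak of Cebpa therefore rests on gaps no larger than the spread.

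The comparison of late cells with fibroblasts asked how far the 2 genes differ between adipocytes and their precursors. Log2 values with the floor in place were compared between stages with limma, fitted over all 7582 probe sets that passed the filter, and p-values were adjusted by the Benjamini-Hochberg method over all of them. Pparg was at least 9.69-fold higher in late cells than before induction (log2 change 3.28 ± 0.371 SE, n = 3 against 2, limma adjusted p = 0.000676). Cebpa was at least 10.9-fold higher (3.45 ± 0.198 SE, limma adjusted p = 7.36e-05). Both genes passed the threshold of 0.05, against 10.9% of all tested probe sets in either direction and 5.82% in the higher one. The folds are lower bounds because the fibroblast values are at the floor, and those tied values also shrink the error of Cebpa. Each p-value is measured against how much neighbouring time points of a stage differ, real change included, and nothing in the labels says that they came from separate cultures. Both calls held under all 18 alternatives tried.

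Most of the rise came between the first day and days 2 to 3. Pparg was at least 6.39-fold higher in middle than in early cells (log2 change 2.71 ± 0.371 SE, n = 2 against 3, limma adjusted p = 0.00761) and Cebpa at least 8.02-fold higher (3.00 ± 0.198 SE, limma adjusted p = 0.00035). Both passed, against 1.04% of all tested probe sets in either direction and 0.752% in the higher one. The Pparg call was lost on an asinh scale without a floor (adjusted p = 0.0569), without the filter on low values (0.0781) and without the day 3 sample (0.136), and the Cebpa call held under all 17 alternatives.

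Neither gene passed the test in the steps on either side of this rise. Pparg had 267 at 24 hours as its only early value above the floor, and early against before gave a log2 change of 0.32 ± 0.371 SE (limma adjusted p = 0.917). All 5 early and fibroblast values of Cebpa were at the floor, so no fold can be given. In late against middle cells, Pparg averaged 1343 ± 257 (SD, n = 3) and 1152 ± 365 (SD, n = 2), with geometric means 1.18-fold apart (limma adjusted p = 0.855). Cebpa averaged 1720 ± 261 in late and 1270 ± 311 in middle cells, with geometric means 1.36-fold apart (limma adjusted p = 0.411, unadjusted p = 0.0515). In early against before 0.356% of all tested probe sets passed (0.198% higher and 0.158% lower), and in late against middle 0.29% did (0.224% higher and 0.0659% lower). A smooth curve along all 10 time points, which uses no stages, passed for both genes (limma adjusted p = 0.000141 for Pparg and 0.00103 for Cebpa) as it did for 16.8% of tested probe sets.

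**Figure D2:**
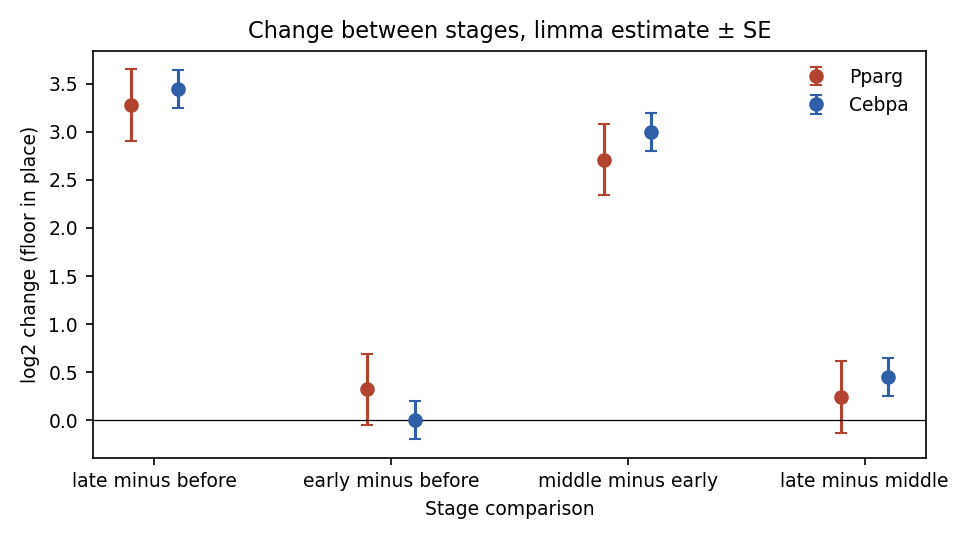
Log2 change between stages (vertical axis, floor in place) for Pparg and Cebpa, as limma estimates with bars of 1 SE. Late minus before and middle minus early lie at 2.71 or above for both genes, while early minus before and late minus middle lie below 0.5.

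The largest single step of both genes was the one from 24 hours to day 2. Pparg was 1.74 higher on the log2 scale on day 2 than at 24 hours, a step that 0.864% of the tested probe sets of array A equalled or exceeded. Cebpa was at least 2.75 higher, and 0.368% of those of array B did as much. Before that, Pparg had already gained 0.96 between 12 and 24 hours, a step matched by 6.25% of probe sets and so inside the bulk of the array, whereas Cebpa had gained nothing measurable. After day 2 the steps were small: 0.66 and 0.22 for Pparg to days 3 and 4, and 0.50, 0.19 and 0.23 for Cebpa to days 3, 4 and 7. The decline of Pparg from day 4 to day 7 (-0.44) and of Cebpa from day 7 to day 28 (-0.44) was matched by 20.7% and 20.1% of probe sets. Taken as the first sample above 2 times or above 3 times the higher of the floor and the fibroblast values, the onset of both genes fell on day 2, as it did by the first measure for 2.37% of all tested probe sets.

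**Figure D3:**
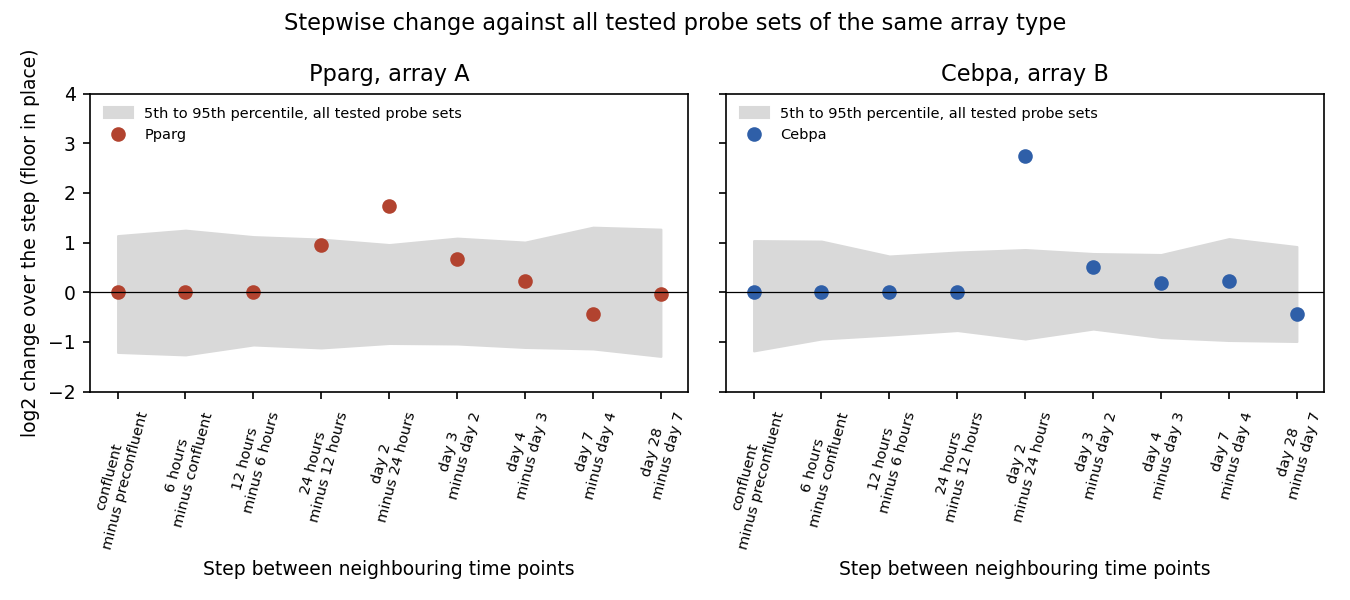
Log2 change between neighbouring time points (vertical axis, floor in place) for Pparg on array A and Cebpa on array B, with a grey band from the 5th to the 95th percentile of all tested probe sets of that array. Day 2 minus 24 hours stands above the band for both genes (1.74 and 2.75), and every other step lies inside it.

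The 2 C/EBP factors known to switch on Pparg and Cebpa had their highest values earlier. Cebpb, the gene of C/EBPβ, had 2750 in preconfluent and 2840 in confluent cells, 9960, 9240 and 8450 at 6, 12 and 24 hours, 9090, 4500, 6410 and 4260 on days 2, 3, 4 and 7, and 2970 on day 28. Cebpd, the gene of C/EBPδ, had 716 and 696 in fibroblasts, 1510, 1030 and 1810 at 6, 12 and 24 hours, between 1260 and 1390 on days 2 to 4, and 365 and 367 on days 7 and 28. Both were first above 2 times their fibroblast level at 6 hours, when Pparg and Cebpa were still at background. On day 28 Cebpb was close to its fibroblast values and Cebpd below them, while Pparg and Cebpa were still far above the floor.

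Of 17 listed activators of the 2 genes, 10 were tested, and 0 passed limma's test between late cells and fibroblasts, with 0 below an unadjusted p of 0.05. Of all tested probe sets 10.9% passed there. In early against fibroblast cells, 0 passed, with 2 below an unadjusted 0.05, while 0.356% of all tested probe sets passed. Cebpb was 3.29-fold higher there (log2 change 1.72 ± 0.362 SE, adjusted p = 0.137). Along the whole series, Cebpb (adjusted p = 0.0359) and Cebpd (adjusted p = 0.0377) passed. As 16.8% of all tested probe sets did so, 2 of 10 is near that share. Egr2, the gene of the early growth response factor Krox20, was at or below the floor in 7 of 10 samples and reached 575 on day 2 and 745 on day 4. Stat5a, a factor downstream of growth hormone signalling, had between 1360 and 1840 from day 2 on, against 921 and 986 in fibroblasts, and did not pass (late against before, adjusted p = 0.207). The other tested activators, Ebf1, Ebf2, Stat5b, Creb1, Fosl2 and Jun, passed in none of the stage comparisons.

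Some of the genes known to hold back adipogenesis were lower in late cells. Of 26 listed repressors 14 were tested, and 6 were lower and 0 higher in late cells than in fibroblasts, with a median log2 change of -0.946, against -0.0546 over all tested probe sets, of which 5.1% were called lower. This list, like the others here, was chosen with earlier results of these data known, so setting it beside such shares is a description. Id2, an inhibitor of basic helix-loop-helix factors, had 157, 83 and 139 in late cells, against 1990 and 823 in fibroblasts (at least 8.19-fold lower, adjusted p = 0.0042). In the step from early to middle cells, where 0.29% of tested probe sets were called lower, it had 238 and 133 in middle cells, against 3560, 2380 and 1530 in early cells (at least 12.2-fold lower, adjusted p = 0.0088). Id2 thus fell below every earlier value in the same interval in which Pparg and Cebpa rose, although the middle against early call was lost without day 3 (adjusted p = 0.138). Hes1, an effector of Notch signalling, had 100, 231 and -66 in late cells, against 666 and 895 in fibroblasts (at least 4.64-fold lower, adjusted p = 0.00264).

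Gata2, a zinc finger factor known to repress Pparg in preadipocytes, had 221, 23 and 209 in late cells, against 769 and 624 in fibroblasts (at least 3.69-fold lower, adjusted p = 0.0234), and had already dropped to 159 at 12 hours. Ctnnb1, the gene of the Wnt effector beta-catenin, was at least 2.74-fold lower (adjusted p = 0.01), Id3 at least 4.59-fold (adjusted p = 0.0256) and Dlk1, the preadipocyte factor Pref-1, 4.19-fold (adjusted p = 0.0364). Hes1 and Id2 kept their late against before call whichever of the 10 time points was left out, Ctnnb1 in 9 cases, Gata2 and Id3 in 7 and Dlk1 in 3. The number of repressors called lower was 2 without the preconfluent sample, 3 without the confluent one and 3 without the filter on low values. Ddit3, the gene of the stress-induced factor CHOP, was not among those called lower: it had 3270, 8190 and 2570 in late cells, against 575 and 2540 in fibroblasts (3.39-fold, adjusted p = 0.12). It was the 1 repressor called higher in late against middle cells, where 0.224% of all tested probe sets were. Bhlhe40 (1.08-fold, adjusted p = 0.742) was not called. Wnt10b, a Wnt ligand, was at or below the floor in 8 of 10 samples, and Klf2, Foxc2, Twist1 and Tcf7l1 did not pass in late against before.

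Of 8 listed PPAR and C/EBP family genes 5 were tested, and 0 passed limma's test between late cells and fibroblasts, with 2 below an unadjusted p of 0.05. Of all tested probe sets 10.9% passed there, so 0 of 5 is near that share. Ppard, the gene of PPARδ, lay between 229 and 593 at all time points (late against before 1.34-fold, adjusted p = 0.579), and Ppara did not pass the filter, with 177 as its highest value. Cebpg had 636, 567 and 411 in late cells, against 241 and 360 in fibroblasts (1.8-fold, adjusted p = 0.0664). Ddit3, whose product CHOP is a C/EBP family member that dimerises with the others and blocks their binding, was called higher in late cells than in middle cells, where it had -405 and -95 (at least 26.3-fold higher, adjusted p = 0.0295), against 0.224% of all tested probe sets called higher. That call held in 4 of the 10 fits that left out a time point.

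None of the tested partners of PPARγ passed a test between stages. Of 18 listed partners and coregulators 6 were tested, and 0 passed limma's test in late against before (2 below an unadjusted p of 0.05), early against before (0), middle against early (1) or late against middle (1). Of all tested probe sets 10.9%, 0.356%, 1.04% and 0.29% passed in these comparisons, so 0 of 6 is near those shares. Rxra, the gene of RXRα, had 1170, 431 and 581 in late cells, against 1050 and 820 in fibroblasts (adjusted p = 0.483), and Rxrb had 2090, 1180 and 1310, against 1680 and 2020 (adjusted p = 0.505). Rxra and Rxrb were therefore measurable in fibroblasts, where Pparg was not. Rxrg, the other listed RXR gene, did not pass the filter, with -150 as its highest value. Tle3, a corepressor family gene known to cooperate with PPARγ, reached 890 on day 3, against 329 and 399 in fibroblasts, and stood at 438 on day 28. Ncoa1, a coactivator gene, was at or below the floor at the first 5 time points and had 271, 210 and 193 in late cells (adjusted p = 0.136 against before). Ppargc1a, Ncor1, Med1 and Ep300 were not analysed here.

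Most tested target genes of PPARγ were higher in late cells, and several rose in the same interval as Pparg. Of 25 listed targets 13 were tested, and in late cells against fibroblasts 9 were higher and 0 lower, with a median log2 change of 3.1 (5.82% of all tested probe sets were called higher). Among them, Cd36, Cidec and Gpd1 were at or below the floor up to 24 hours. These passed the filter only through later samples and could not be called lower. Fabp4, the fatty acid carrier of adipocytes, had 5210 and 19800 in middle cells, against -64, 24 and 269 in early cells (at least 59.2-fold higher, adjusted p = 0.000548). Cidec, a lipid droplet protein, had 2840 and 8150, against -16, 31 and 99 (at least 30.8-fold higher, adjusted p = 0.000548). Adipoq (adiponectin), Cd36 (a fatty acid transporter) and Lipe (hormone-sensitive lipase) also passed in middle against early, which makes 5 higher and 0 lower with a median of 2.96, against -0.0345 over all tested probe sets, of which 0.752% were called higher. That count was 2 without the 6-hour sample and 3 without the 12-hour one. It was 1 (Cidec) without the filter on low values, where Fabp4 had an adjusted p of 0.0537, 3 with a floor 2 times as high, and 10 with day 4 in the middle stage. The probe sets of a gene disagreed for Cd36, where 1 of 2 was called (log2 changes of 2.84 and 4.04), and for Dgat1, where the brighter was not called and the other was (1.76 and 2.21). In early against before 0 passed limma's test, with 3 below an unadjusted p of 0.05, while 0.356% of all tested probe sets passed.

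In late cells Gpd1, which makes the glycerol phosphate of triglycerides, had 11900, 12500 and 9660, against -252 and -327 in fibroblasts (at least 72.3-fold higher, adjusted p = 0.00476). Lpl, the lipoprotein lipase, was 8.57-fold higher (adjusted p = 0.0053), Dgat1, an enzyme of the last step of triglyceride synthesis, 5.98-fold (adjusted p = 0.00222) and Mgll, the monoglyceride lipase, 4.61-fold (adjusted p = 0.0148). The targets that missed the threshold were Angptl4 (4.91-fold, adjusted p = 0.0714), Plin2 (4.14-fold, adjusted p = 0.0816), Me1 (2.35-fold, adjusted p = 0.0645) and Slc27a1 (1.09-fold, adjusted p = 0.827). Plin2, a lipid droplet coat gene, had 41 and 103 at 6 and 12 hours, against 1160 and 1200 in fibroblasts, before reaching 6010 on day 7. The Mgll call was lost without the preconfluent (adjusted p = 0.0841) or the confluent sample (0.0878), and the other 8 calls held whichever time point was left out.

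Of the 13 PPARγ targets, 7 were first above 2 times their fibroblast level on day 2, the same sample as Pparg and Cebpa. At 24 hours 2 were (Angptl4 and Lipe), on day 3 1 (Mgll), on day 4 2 (Me1 and Plin2), and Slc27a1 at no time point. Of all tested probe sets, 0.857% had this onset at 24 hours, 2.37% on day 2, 2.02% on day 3 and 2.19% on day 4. A further 83.7% had it at no time point. Angptl4 had 1020 at 24 hours, against 472 and 169 in fibroblasts, and Lipe 1840, against -651 and 688, so these 2 targets were up in the same sample in which Pparg first became measurable. With 1 sample per time point, onset is resolved only to the sampling interval.

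Of 12 listed C/EBPα targets 7 were tested, and all 7 were higher in late cells than in fibroblasts, with a median log2 change of 5.13, against 5.82% of all tested probe sets called higher (2 of them, Fabp4 and Adipoq, also stood on the PPARγ list). Slc2a4 was at or below the floor up to day 2 and passed the filter only through later samples. Slc2a4, Hp and Orm1 were at the floor before induction, so they could not be called lower. Scd1, a fatty acid desaturase, had 34700, 46400 and 48500 in late cells, against 1060 and 987 in fibroblasts (41.8-fold higher, adjusted p = 2.4e-05). It was the only one called in early cells, where 0.198% of all tested probe sets were called higher. Scd1 had 6890, 7590 and 4930 at 6, 12 and 24 hours (6.22-fold higher than before, adjusted p = 0.00895), while Cebpa was still at background. That early call was lost without the preconfluent (adjusted p = 0.0575) or the 12-hour sample (0.0724). Slc2a4, the insulin-responsive glucose transporter GLUT4, was first above 2 times its fibroblast level on day 3, as was Orm1. It had 77 and 540 on days 2 and 3 and 2080, 3200 and 2960 on days 4, 7 and 28, against 32 and 10 in fibroblasts (at least 17.3-fold higher in late than before, adjusted p = 0.00136).

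Slc2a4 was also higher in late than in middle cells (at least 7.89-fold, adjusted p = 0.0295), in which neither Pparg nor Cebpa passed and 0.224% of all tested probe sets were called higher. That call held in 2 of the 10 fits that left out a time point. Hp, the gene of haptoglobin, had 881 at 24 hours, when Cebpa was at the floor, and was at least 35.1-fold higher in late cells (adjusted p = 0.00517). Retn (resistin) was 12.7-fold higher (adjusted p = 0.0128) and Orm1 (orosomucoid) at least 4.12-fold (adjusted p = 0.0142). Without the preconfluent sample 4 of the 7 calls were left, Hp (adjusted p = 0.0507), Retn (0.083) and Orm1 (0.0897) being lost, and Retn (0.0818) and Orm1 (0.0744) were also lost without the confluent one. Lep (leptin) and Insr (the insulin receptor) did not pass the filter, with highest values of 94 and 11.

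**Figure D4:**
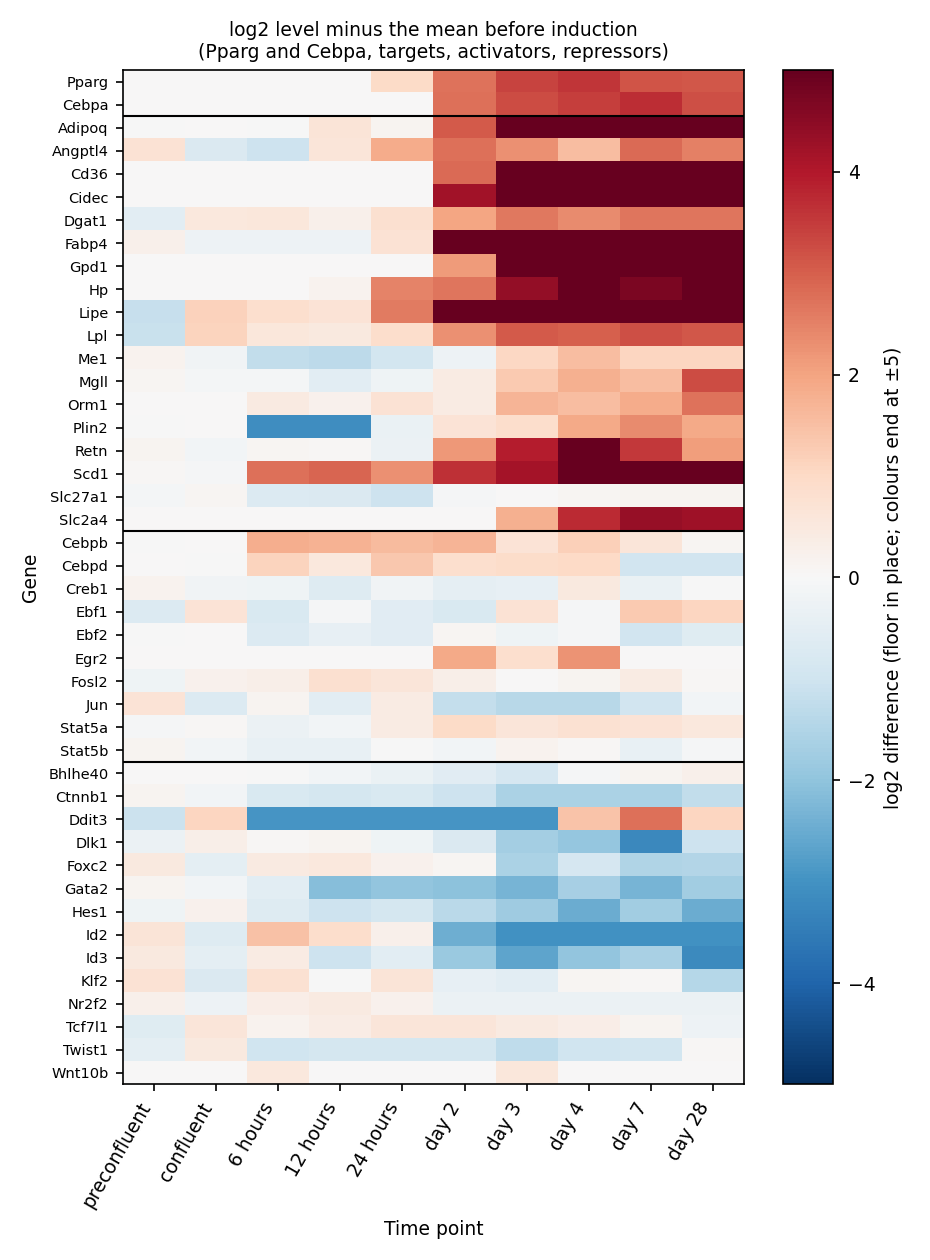
Log2 level minus the mean before induction (colour, floor in place, limits at 5 either way) at each time point for 44 genes: Pparg and Cebpa, then 18 target genes, 10 activators and 14 repressors. Fabp4, Cidec, Cd36 and Gpd1 are among the target genes that turn red on day 2 together with Pparg and Cebpa. Scd1 is red from 6 hours, while Slc2a4, Slc27a1, Me1, Mgll and Orm1 lie between -0.24 and 0.40 on day 2. Cebpb and Cebpd are red from 6 hours, and Cebpd is blue on days 7 and 28 (-0.95 and -0.94). Id2, Id3, Hes1 and Gata2 turn blue.

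Among genes known to act through C/EBPα or PPARγ activity, Ccnd1 (cyclin D1, a known repressor of PPARγ activity) had 169, 95 and 571 in late cells, against 4230 and 2640 in fibroblasts (at least 11.5-fold lower, adjusted p = 0.0131). Cdk4, the kinase it pairs with, was 2.4-fold lower (adjusted p = 0.0184). These were the 2 called of 7 tested cell cycle partners of 12 listed, against 5.1% of all tested probe sets called lower, and both were lost without the preconfluent (adjusted p = 0.111 and 0.0655) or the confluent sample (0.0576 and 0.0921). Cdkn1a, the gene of p21, which C/EBPα is known to stabilise, did not pass in late against before (1.5-fold lower, adjusted p = 0.38). Of 8 listed genes that may supply PPARγ ligands 3 were tested, and 1 was called higher in early against before and 1 in late against before. Of all tested probe sets 0.198% and 5.82% were called higher there. Xdh, a xanthine dehydrogenase known to promote PPARγ activity in preadipocytes, had 10100 at 6, 12 and 24 hours, against 918 and 2280 in fibroblasts (6.98-fold higher, adjusted p = 0.022, kept in 4 of 10 fits that left out a time point). Fasn, the fatty acid synthase, was 4.3-fold higher in late cells than in fibroblasts (adjusted p = 0.00663), a call lost without the preconfluent sample (0.0649).

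Fabp4, Timm17a, Dgat2 and Cidec were among the 5 genes most like Pparg and also among the 5 most like Cebpa. Likeness was the Pearson correlation of log2 values with the floor in place over the 10 time points, against 4822 other probe sets with 1 symbol. The points share the same 10 RNA samples and many of them sit at the floor, so the coefficients are a description. For Pparg the most alike were Fabp4 (0.989), Timm17a of the mitochondrial inner membrane import machinery (0.987), Dgat2, the other enzyme of the last triglyceride step (0.982), Cidec (0.981) and Cpt2, which brings fatty acids into mitochondria (0.979). For Cebpa they were Cidec (0.997), Dgat2 (0.994), Mtres1, a mitochondrial transcription rescue factor (0.985), Fabp4 (0.985) and Timm17a (0.981). Cebpa ranked 7 for Pparg and Pparg ranked 11 for Cebpa (0.978). These ranks were 36 and 19 by rank correlation, and 31 and 21 on linear values. Over days 2 to 28 alone, the Pearson correlation of the 2 genes was 0.678 (n = 5).

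Timm17a shows what such likeness rests on: it had 690 and 672 in fibroblasts and 607, 677 and 831 early, then between 1400 and 1780 from day 2 on, a far smaller change than Fabp4 made. Cpt2 had 242 at 24 hours, 704 and 736 on days 2 and 3 and 1800 on day 4, with a peak on day 4 as in Pparg. Above 0.9 there were 132 probe sets for Pparg and 131 for Cebpa. Running most nearly opposite to Pparg were Itgb1, the integrin beta-1 chain (-0.986), Ptx3, a secreted pentraxin (-0.977), and Tpm4, a tropomyosin (-0.965). For Cebpa they were Ptx3 (-0.980), Arf6, a small GTPase of membrane traffic (-0.968), and Atp1b1, a sodium pump subunit (-0.967). Ptx3 had at most 257 from day 2 on, against 1850 and 1560 in fibroblasts. The names depend on the measure: by rank correlation Cpt2 stayed among the 5 most alike of Pparg and Cidec among those of Cebpa, and on linear values Dgat2 stayed for Pparg and none of the 5 did for Cebpa.

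Markers of other cell types and RNA quality were read beside these results. The summed intensity of the 4 adipocyte markers on array A was between 944 and 1378 in fibroblasts, between 1306 and 2759 in early cells, between 21700 and 54620 in middle cells and between 56250 and 86600 in late cells. In late against before, where 5.1% of all tested probe sets were called lower and 5.82% higher, 3 of 8 fibroblast markers (S100a4, Thy1 and Pdgfrb), all 8 tested, were lower. Their sum on array A was between 8471 and 28288 late, against 42505 to 46345 before, and on array B between 36358 and 48653 late, against 55280 to 72820 before. Of 11 macrophage markers 6 were tested and 2 (C1qc and Cd14) were lower. Their sum on array A was 2277 to 3863 late, against 3148 to 3476 before, and on array B 1603 to 1763 late, against 2919 to 3157 before. Adgre1 and Csf1r were at background (highest 53 and 48), while Ptprc, Lyz2 and C1qb were above the floor in every sample. Ptprc had 1510 in preconfluent cells and 1110 on day 28. Of 7 muscle markers 5 were tested and Des was higher. Their sum on array A was 1386 to 1398 late, against 737 to 1125 before. On array B it was 3874 to 7770 late, against 3910 to 4845 before. Mb, not called there, had 651 on day 7 and 4790 on day 28, and Ckm was above the floor in every sample. Of 6 endothelial markers 3 were tested and Icam2 was higher, with Pecam1 and Cdh5 at background (highest 83 and 13). Kdr had 1010 and 820 in fibroblasts and 608 on day 28. Of the 10 fits that left out a time point, the call was kept in 9 for S100a4, 6 for C1qc, 5 for Icam2, 3 each for Cd14 and Des, and 1 each for Thy1 and Pdgfrb.

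On array A, which holds Pparg, the ratio of 3-prime to 5-prime signal of Gapdh was between 0.986 and 1.33 before induction, 1.43 and 1.61 in early, 1.27 and 1.6 in middle, and 0.992 and 1.14 in late cells, and that of beta-actin 1.05 to 1.48, 1.39 to 1.45, 1.41 to 1.72 and 1.29 to 1.41 in the same order. On array B, which holds Cebpa, the Gapdh ratio was 0.788 to 0.815 before, 0.722 to 0.773 early, 0.762 to 0.765 in middle and 0.737 to 0.773 in late cells. The beta-actin ratio on array B was 0.824 to 0.872 before, 0.801 to 1.11 early, 1.06 to 1.08 in middle and 0.955 to 1.05 in late cells. Late and fibroblast samples thus did not overlap on array B for either control, beta-actin being higher in late cells and Gapdh lower. On array A the Gapdh ratios of early cells lay above those before induction, and those of middle cells above those of late cells. The part of the marker levels and of these ratios in the results for Pparg and Cebpa was not tested.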

How the data were processed

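Trizol-extracted total RNA was labelled as biotinylated cRNA and hybridised to 2 Affymetrix array types, per the labels' protocols. The authors deposited 1 linear intensity per probe set, which can be negative. The software is not given in the sources used here. Trimmed means of the arrays were 500.9 to 501.1, so the authors' scaling was kept. Low values were raised to a floor, the negative of the 10th percentile (137 for array A, 156 for array B), and put on the log2 scale. Probe sets above 182 (array A) or 156 (array B) in at least 2 of 10 samples were tested: 4050 and 3532, covering 4115 named genes. Controls were left out. Stage means were fitted per array type with limma 3.58.1 in R 4.3.3 (lmFit, eBayes, 6 residual degrees of freedom), the trend with a natural cubic spline of 3 degrees of freedom. Where the dimmer stage touched the floor, folds are the smaller of the ratios of geometric and plain means. For a gene with several probe sets the brightest was used. Fits were tested on simulated data. Precision is limited by how few arrays there are.

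The genes and lists were chosen with earlier results of these data known. List members were named by lowest adjusted p, plus uncalled ones. Promoter sequences are RefSeq's (GRCm38.p6). Alternatives were other floors, an asinh scale, no filter, quantile normalization, a trended variance prior, other stages, another spline and leaving out each time point.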

Additional observations from a re-analysis of the deposited data

How the results depend on the processing

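All calls of Pparg and Cebpa in late against before, and of Cebpa in middle against early, kept their direction and side of the threshold under every alternative run. Their log2 changes were 2.28 to 3.99, 2.45 to 4.45 and 2 to 4. On the asinh scale, which is not log2, the changes were 3.44, 5.58 and 4.76. Pparg in middle against early was no longer called on the asinh scale (3.43, adjusted p = 0.0569), without the filter (2.71, 0.0781) and without day 3, with values of 2.39 to 3.04 over the fits that left out a time point (highest adjusted p = 0.136). The number of probe sets called over all genes moved more. With a floor 2 times as high it was 65 in early against before, 46 in middle against early and 9 in late against middle, and with a floor 0.5 times as high 35 in late against middle. On the asinh scale it was 14, 51 and 5 in those comparisons. Without the filter it was 412 in late against before, then 15, 15 and 12, and 631 along the series, with more probe sets tested. A trended variance prior gave 43 in early against before. With day 4 in the middle stage, 319 were called in middle against early and 85 in late against middle, and with the confluent sample alone before induction 319 in late against before and 9 in early against before. Leaving out 1 time point gave 319 to 766 in late against before, 0 (without 12 hours; limma, 507 at an unadjusted p under 0.05) to 46 in early against before, 15 to 136 in middle against early and 2 to 116 in late against middle. The causes of these moves were not tested, except that fewer samples or more probe sets enter by construction. No paired analysis was possible because the labels carry no replicate numbers. Values at the floor have no order, and signal near background limits what can be said of both genes before 24 hours.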
